A study of Mus musculus with 8 samples.

Results

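Gm2016, Gm2022, Gm4027, Gm5039, Gm5662 and Gm8300 are predicted mouse genes on chromosome 12 whose coding sequence resembles that of Eif1ax, the X-linked gene for translation initiation factor eIF1A. These 6 of the 46078 genes in the count table were taken by name, as Eif1a-like genes known from 2-cell embryos. They were proposed with their values in KO and control oocytes already known, so those values are given as a description, without a test. RNA was sequenced from germinal vesicle (GV) stage oocytes of females carrying floxed alleles of Cnot7 and Cnot8 (fl/fl) together with Zp3-Cre (CNOT7&8 KO, 4 libraries) and of Zp3-Cre females without the floxed alleles in their label (control, 4 libraries). CNOT7 and CNOT8 are the deadenylases of one type in the CCR4–NOT complex, which shortens mRNA poly(A) tails, and the comparison asks how their loss changes the oocyte's RNA. Zp3-Cre acts in growing oocytes, so the surrounding ovarian cells keep both genes, and the mature oocyte also holds RNA made before the deletion. Mice had a C57BL/6J background and were 4 weeks old, all females received pregnant mare serum gonadotropin before collection, and each library was made from 100 oocytes pooled. The labels do not tie libraries to animals, so the spread between libraries may be partly technical, and in bulk RNA fewer cells of a type and less RNA per cell cannot be told apart.

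eIF1A binds the small ribosomal subunit as part of the 43S pre-initiation complex and, together with eIF1, lets the complex scan the 5′ end of an mRNA for a start codon. Mice carry several near-identical copies of this gene in a cluster, which are known as transcripts of the 2-cell embryo, the stage of the main wave of zygotic genome activation. Fully grown GV oocytes are close to transcriptionally silent and live on stored maternal mRNA, and 2-cell transcripts of this kind are normally scarce in them. No embryo library was analysed here, so expression at the 2-cell stage is background and was not measured.

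All 6 genes lie on chromosome 12 of GRCm38, within 805.8 kb between their first and last start positions in the GENCODE vM21 annotation. Gm8300 (87514316 to 87518266), Gm4027 (87618869 to 87622955), Gm2016 (87874072 to 87877859) and Gm2022 (87895370 to 87895804) are on the plus strand. Gm5662 (88270640 to 88274500) and Gm5039 (88320122 to 88324026) are on the minus strand. Each has 2 exons with the whole coding sequence in exon 2, except Gm2022, which is annotated with 1 exon here and over a longer range, 87892834 to 87896722, in RefSeq. GENCODE gives all 6 as protein coding, whereas RefSeq records Gm5039 as a transcribed pseudogene.

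The annotated coding sequence of each gene has 435 bases and would encode 144 residues, as does that of Eif1ax. Identity between the 6 coding sequences was 97.0% to 99.1% over 15 pairs, against 83.7% to 85.1% with Eif1ax, so the genes were much closer to each other than to the X-linked gene. Their predicted proteins shared 90.3% to 94.4% of residues with eIF1A from Eif1ax. Gm5039 was the nearest, with 8 residues unlike Eif1ax, and Gm4027 the farthest, with 14. A difference was seen at 16 of the 144 positions in at least 1 of the genes and at 6 positions in all of them, and at 5 of those 6 positions all the genes held the same residue. The stretch of coding bases 262 to 291 is shown because it separates the copies from Eif1ax and partly from each other. It is read from GENCODE vM21 transcripts, 5′ to 3′ on the coding strand, and capitals mark bases unlike Eif1ax.
Eif1ax, chrX:159379736-159379765, plus strand, exon 5 of 7: aaagccgatgtcattttaaaatacaacgca
Gm8300, chr12:87517158-87517187, plus strand, exon 2: aaagcTgatgtAatCttaaaGtacaaTCca
Gm4027, chr12:87621861-87621890, plus strand, exon 2: aGGgcTgatAtAatCttaaaGtacaaTCTa
Gm2016, chr12:87876846-87876875, plus strand, exon 2: aaagcTgatgtAatCttaaaGtacaaTCca
Gm2022, chr12:87895631-87895660, plus strand, exon 1: aaagcTgatgtAatCttaaaGtacaaTCAa
Gm5662, chr12:88271698-88271727, minus strand, exon 2: aaagcTgatAtAatAttaaaGtacaaTCca
Gm5039, chr12:88321191-88321220, minus strand, exon 2: aaagcTgatgtAatCttaaaGtaTaaTCca
The 6 genes held 5 different sequences here, Gm8300 and Gm2016 being alike, with 6 to 10 bases unlike Eif1ax.

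How well reads can be told apart differed between the copies. Of all 150-base windows of the transcript, the length of 1 read, 99.0% in Gm5039 and 97.0% in Gm8300 occurred in no other GENCODE vM21 transcript. The share was 80.1% for the 435-base transcript of Gm2022, 59.7% for Gm5662 and 56.3% for Gm2016, the last pair sharing most of the rest with each other. Gm4027 had only 11.8% unique windows, and 88.2% occur in BB287469, another Eif1a-like gene of the cluster, which has an identical coding sequence and shares much of the remaining transcript as well. Eif1ax and Eif1a, the autosomal eIF1A gene, were unique in 100% of windows. How reads with several matches were counted is not given in the sources used here, so the values of Gm4027, Gm2016, Gm5662 and Gm2022 are uncertain as values of single genes.

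A promoter (250 bases before to 50 after the start) was found in the RefSeq table for 1 of the 6 genes, Gm4027, and for 5 of all 16 Eif1a-like genes of chromosome 12. A 30-base stretch around its TATATA match is shown beside those of 2 relatives, because Gm4027 and its relative BB287469 share it base for base. The letters are from RefSeq, build GRCm38.p6, 5′ to 3′ on the strand of the gene, upstream of the transcript in the GENCODE annotation, with TATATA matches in capitals.
Gm4027, chr12:87618827-87618856, plus strand: ttgtggacctgTATATATActcaagctctg
BB287469, chr12:87816536-87816565, plus strand: ttgtggacctgTATATATActcaagctctg
Gm21319, chr12:87775768-87775797, minus strand: tggaaaaaagaaTATATAttcaagctccgc
The match began 30 bases before the start of BB287469 and of Gm21319, and 31 bases before the GENCODE start of Gm4027 and 71 bases before the start used in the RefSeq table. The range of Gm4027 over all its RefSeq transcripts begins farther upstream, at 87617797, so the stretch lies inside the gene by that annotation. TATATA, which reads the same on both strands, occurred in 5.67% of 32851 mouse promoters of this length, and in neither of the other Eif1a-like promoters found, those of Gm21936 and Gm6803. The promoters of Gm4027 and BB287469 shared a run of 231 bases, and that of Gm21319 was 81.5% identical to Gm4027 over 216 aligned bases. GATTNAATC, searched on both strands as letters of the binding site of the 2-cell factor DUX, was in 0.268% of all promoters and in none of these 5.

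Sequencing depth and identity of the samples were as follows. Total counts per library ranged from 14943671 to 44092144 in controls and from 8639444 to 26784110 in KO, and counts per 1000000 (CPM) were computed on library sizes scaled by TMM (trimmed mean of M values). The TMM factors were 0.849 to 0.943 in controls and 1.07 to 1.14 in KO. CPM are shares of the RNA in a library, so differences between groups are not differences in level per oocyte. The libraries were rich in 8 oocyte markers such as Zp3 and Gdf9, whose summed level was 15998 to 18431 CPM in controls and 13040 to 15259 CPM in KO. None of the 8 changed 2-fold. Smaller falls in KO passed the p threshold (edgeR) for Ooep (log2 fold change -0.88, adjusted p = 1.16e-05), Zp1 (-0.58, adjusted p = 0.000198), Figla (-0.63, adjusted p = 0.0124) and Zp3 (-0.37, adjusted p = 0.0485). Zp2, Gdf9, Bmp15 and Nlrp5 did not pass it. Cnot8 fell from a mean of 168 CPM (154 to 197, n = 4) to 35.2 ± 1.40 CPM (SD, n = 4, log2 fold change -2.25, SE 0.12, edgeR quasi-likelihood test with Benjamini-Hochberg adjustment, adjusted p = 8.2e-08). Cnot7 was at 933 ± 77.3 CPM in controls and 719 ± 70.8 CPM in KO (log2 fold change -0.38, adjusted p = 0.0105, edgeR), less than a 2-fold change. For both genes every KO library was below every control. The paper reports from immunoblotting that both proteins were depleted in KO oocytes. The KO libraries were not alike in transcripts that controls lack. Among 204 genes other than the 6 with at most 3 counts in each control library and a KO mean of at least 1 CPM, 56.9% were higher in both KO 3 and KO 4 than in KO 1 and KO 2, compared with 19.99% of the 19241 genes tested.

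In control oocytes Gm5039 was detected at a low level, and the rest of the 6 Eif1a-like genes were near or below detection. Reads were counted for all 6 in every KO library. For Gm4027 these were only 7 in KO 1 and 5 in KO 2, and 88.2% of its windows occur in BB287469. Its own transcript is therefore not established in those libraries. The summed level of the 6 genes was 1.15, 2.07, 1.84 and 1.53 CPM in controls 1 to 4, and 56.3, 49.8, 191 and 250 CPM in KO 1 to 4. The lowest KO library was thus far above the highest control, and KO 3 and KO 4 were far above KO 1 and KO 2. The means were 1.65 ± 0.40 and 137 ± 99.6 CPM (SD, n = 4), a ratio of 83.0. Without KO 4 the KO mean was 98.4 CPM, and without KO 2 it was 165 CPM.

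**Figure D1:**
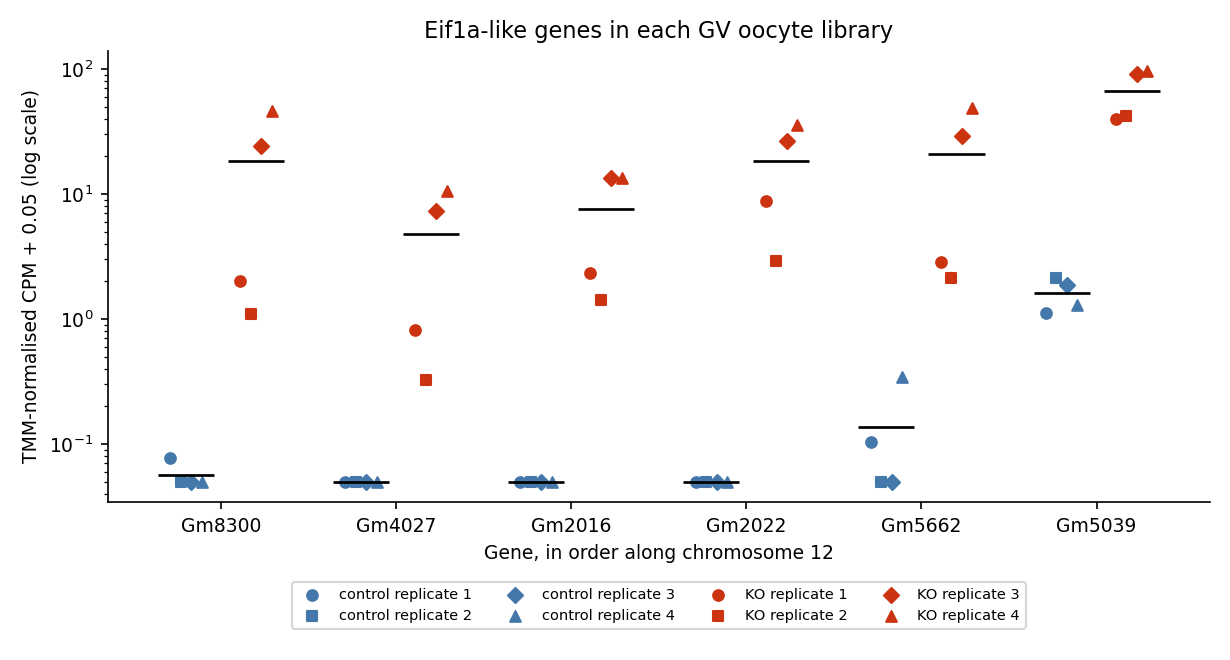
Level of each of the 6 Eif1a-like genes in each library, as TMM-normalised CPM plus 0.05 on a log axis, with 1 point per library (blue, control; red, KO; shape, replicate) and a black line at each group's mean. Within each gene all KO points lie above all control points, Gm5039 is the only gene detected in each control library, and KO 3 and KO 4 lie above KO 1 and KO 2 for every gene.

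Gm5039 accounted for nearly all of the family's signal in controls. It had 40, 42, 27 and 17 counts in controls 1 to 4 (1.07, 2.07, 1.84 and 1.24 CPM) and 367, 768, 1471 and 2809 counts in KO 1 to 4 (39.8, 42.2, 90.7 and 95.7 CPM). The groups were far apart, and this gene had the most even level among the KO libraries, whose highest value was 2.40 times the lowest. The mean was 1.55 ± 0.48 CPM in controls and 67.1 ± 30.2 CPM in KO, and the ratio of counts pooled over libraries was 50.7 (95% interval 42.5 to 61.0, counting error only). The fitted log2 fold change was 5.46 with an SE of 0.37.

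Gm5662 and Gm8300 had a trace in controls and a wide range in KO. Gm5662 had 2, 0, 0 and 4 counts in controls and 26, 38, 467 and 1434 counts in KO, or 2.82, 2.09, 28.8 and 48.8 CPM in KO 1 to 4. Gm8300 had 1, 0, 0 and 0 counts in controls and 18, 19, 392 and 1356 counts in KO, or 1.95, 1.04, 24.2 and 46.2 CPM. Both were low in KO 1 and KO 2 and more than 10 times higher in KO 3 and KO 4. KO means were 20.6 ± 22.5 CPM for Gm5662 and 18.3 ± 21.4 CPM for Gm8300, so the SD exceeded the mean. Without KO 4 they were 11.2 CPM and 8.996 CPM. The pooled ratio of KO to control was 386 for Gm5662 (95% interval 177 to 1054) and 2106 for Gm8300 (377 to 83210). These intervals cover counting error only and leave out the spread between libraries. The width of the second comes from its single control count.

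Gm2022, Gm2016 and Gm4027 had no count in any control library. Gm2022 had 80, 52, 432 and 1037 counts in KO 1 to 4, or 8.68, 2.86, 26.6 and 35.3 CPM. Gm2016 had 21, 25, 215 and 393 counts, or 2.28, 1.37, 13.3 and 13.4 CPM. Gm4027, whose reads are the least separable, had 7, 5, 117 and 309 counts, or 0.760, 0.275, 7.21 and 10.5 CPM. Again KO 3 and KO 4 were the high libraries for each gene. A count of 0 allows up to 3 counts, equal to 0.0802 to 0.326 CPM over the 8 libraries. Set against 3 counts in each control library, the KO mean was at least 46.6-fold higher for Gm2016 (7.57 ± 6.65 CPM) and at least 28.8-fold higher for Gm4027 (4.69 ± 5.01 CPM), and the bound for Gm2022 (18.4 ± 15.2 CPM) was 113-fold. Without KO 4 the KO mean of Gm4027 was 2.73 CPM.

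All 6 genes passed the filter of 0.2 CPM in 2 libraries, 5 of them through the KO libraries alone. All 6 were called upregulated (a change of 2-fold or more with an adjusted p no higher than 0.05), as were 23.8% of all 19241 genes tested. In all 6, every KO library was above every control library, as in 27% of the genes tested. At most 3 counts in each control library together with a KO mean of at least 1 CPM was met by 4 of the 6 and by 1.07% of the genes tested. The median log2 fold change of the 6 was 9.82, or 6.18 with the genes lacking control counts set at their bounds, and that of all genes tested was 0.12. The 6 were chosen with this contrast known, so nothing is read from these counts.

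The composition of the family differed between the KO libraries. Gm5039 made up 70.7% of the family's counts in KO 1 (95% Wilson interval 66.7% to 74.5%), 84.7% in KO 2 (82.2% to 86.9%), 47.5% in KO 3 (45.8% to 49.3%) and 38.3% in KO 4 (37.2% to 39.4%). The intervals of the 4 libraries did not overlap, and they cover counting error only. Shares are parts of the same total, so a lower share of Gm5039 means higher shares of others. From KO 2 to KO 4, Gm5662 and Gm8300 went from 4.19% and 2.09% to 19.5% and 18.5%. Gm2016 and Gm4027 went from 2.76% and 0.551% to 5.36% and 4.21%. Gm2022 was at 15.4%, 5.73%, 14.0% and 14.1% in KO 1 to 4, so it was highest in KO 1. Without Gm5039 the other 5 genes summed to 16.5, 7.63, 100.1 and 154 CPM in KO 1 to 4, a range of 20.2 times between the lowest and the highest library. For single genes the mean of KO 3 and KO 4 was 23.5 times that of KO 1 and KO 2 for Gm8300, 17.1 times for Gm4027, 15.8 times for Gm5662, 7.29 times for Gm2016 and 5.37 times for Gm2022, compared with 2.27 times for Gm5039.

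**Figure D2:**
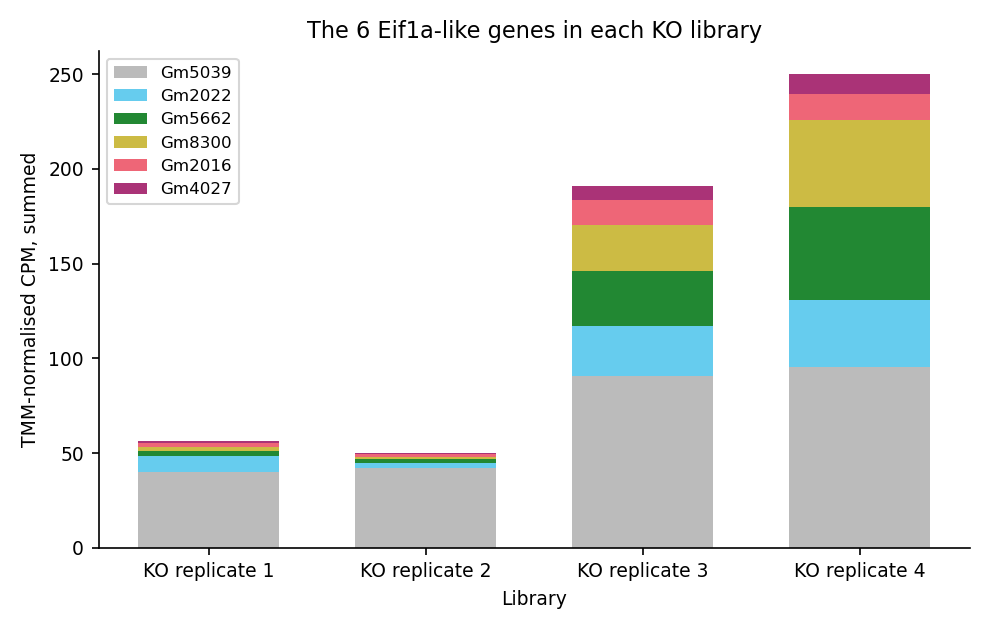
Stacked bars of the TMM-normalised CPM of the 6 Eif1a-like genes in each of the 4 KO libraries, 1 colour per gene. The total is 56.3, 49.8, 191 and 250 CPM, and the grey part, Gm5039, holds most of it in KO 1 and KO 2 and under 50% in KO 3 and KO 4.

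Other measures also differed between these KO libraries. The summed level of 10 granulosa and cumulus cell markers was 76.9 to 103 CPM in controls, 137 and 141 CPM in KO 1 and KO 2, and 92.2 and 83.8 CPM in KO 3 and KO 4. Of the 9 markers tested, Fshr, Inha, Kitl and Inhba were upregulated in KO (4 of 9, beside 23.8% of all genes tested). Cyp19a1, the aromatase gene and the most abundant marker in controls, was lower in every KO library than in any control (58.4 ± 8.01 and 31.3 ± 6.02 CPM, log2 fold change -0.90, adjusted p = 0.000507, edgeR), under the 2-fold threshold, and Foxl2, a defining granulosa gene, was near 0 in both groups. Among the KO libraries the marker sum was thus lower in KO 3 and KO 4, where the Eif1a-like genes were highest, than in KO 1 and KO 2. In KO 3 and KO 4 it lay within the range of the controls. The part of the marker sum in the level of the Eif1a-like genes was not tested. The 3 blood markers summed to at most 1.11 CPM in any library. Total counts were 8639444, 16432525, 14210736 and 26784110 in KO 1 to 4, lowest in KO 1 and highest in KO 4, and the part of depth was not tested.

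Levels of different genes were compared per kilobase of GENCODE transcript, leaving out Gm2022, whose identifier in the count table is not in vM21. KO means were 36.1 ± 16.3 CPM per kb for Gm5039, 11.2 ± 12.2 for Gm5662, 9.79 ± 11.4 for Gm8300, 4.29 ± 3.76 for Gm2016 and 2.54 ± 2.71 for Gm4027. Each neighbouring pair in this order overlapped in its range over the KO libraries. Within each KO library Gm5039 was first, Gm5662 next and Gm4027 last, and only Gm8300 and Gm2016 changed places, Gm2016 being the higher in KO 1 and KO 2. The levels were divided by the whole transcript, of which 99.0% of windows were unique in Gm5039 and 11.8% in Gm4027. How reads with several matches were counted is not known, so this order need not be that of the genes' RNA. The part of shared reads in it was not tested. In controls Gm5039 was at 0.837 ± 0.257 CPM per kb.

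Eif1ax, the more abundant of the canonical eIF1A genes in these oocytes, was not chosen for its values and could be tested. Its level was 328, 263, 296 and 279 CPM in controls and 202, 208, 168 and 184 CPM in KO. All KO libraries were below all controls. The mean was 291 ± 28.2 CPM in controls and 191 ± 18.3 CPM in KO (log2 fold change -0.61, SE 0.11, edgeR quasi-likelihood test with Benjamini-Hochberg adjustment, adjusted p = 0.000607). The difference passed the p threshold and not the 2-fold one. It ranged from -0.66 to -0.33 over the alternatives tried, -0.33 being the value with library size alone as the scale. Per length, Eif1ax was at 56.3 ± 5.45 CPM per kb in controls and 36.9 ± 3.54 in KO. Gm5039 in KO, at 21.5, 22.7, 48.9 and 51.5 CPM per kb, was below the range of Eif1ax in KO 1 and KO 2 and above it in KO 3 and KO 4.

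Eif1a, the other eIF1A gene, which would encode a protein 98.6% identical to that of Eif1ax over 144 aligned residues, was upregulated. It was at 5.24, 3.16, 6.33 and 3.28 CPM in controls and at 35.9, 33.4, 48.7 and 49.6 CPM in KO. The groups did not overlap, and KO 3 and KO 4 were again the higher pair, though by much less than for the chromosome 12 genes. The mean rose from 4.50 ± 1.55 to 41.9 ± 8.46 CPM (log2 fold change 3.22, SE 0.24, edgeR quasi-likelihood test with Benjamini-Hochberg adjustment, adjusted p = 8.98e-07), or from 1.57 ± 0.54 to 14.6 ± 2.95 CPM per kb.

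**Figure D3:**
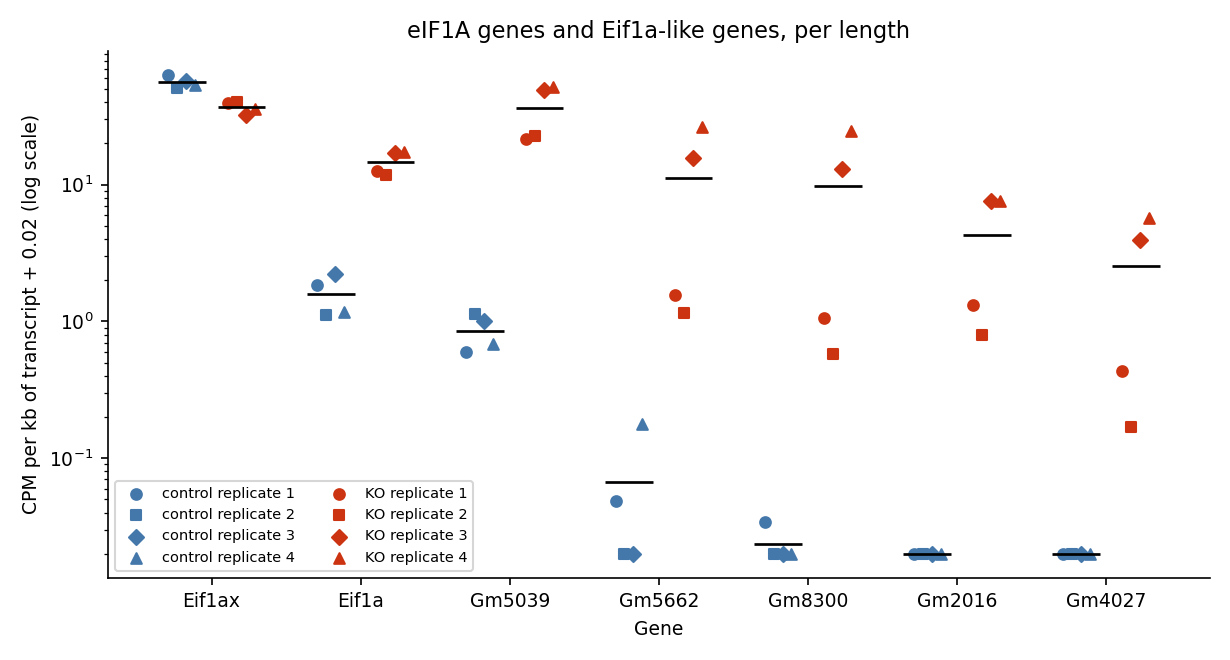
Level per kilobase of transcript plus 0.02, on a log axis, of Eif1ax, Eif1a and 5 of the Eif1a-like genes, with 1 point per library (blue, control; red, KO) and a black line at each mean. Eif1ax is lower in KO, Eif1a higher, and the KO points of Gm5039 lie to either side of those of Eif1ax.

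Eif1a was the one upregulated gene among those of the 43S pre-initiation complex. Of 25 listed genes 24 were tested, 1 was upregulated and 2 were downregulated, against 23.8% and 6.56% of all genes tested. The downregulated genes were the eIF3 subunits Eif3d (117 ± 16.3 to 57.3 ± 8.83 CPM, adjusted p = 9.04e-05, edgeR) and Eif3g (127 ± 30.1 to 55.8 ± 11.6 CPM, adjusted p = 0.000339, edgeR). No gene of the list was called down with library size alone as the scale, 1 was without control 2 and 1 without KO 4. Eif1b, a gene for eIF1, was at 189 ± 6.43 CPM in controls and 130 ± 9.12 in KO (log2 fold change -0.54, adjusted p = 0.00054, edgeR), under the 2-fold threshold. Eif1 differed by -0.37 on the log2 scale (adjusted p = 0.0929, edgeR) and Eif1ad, which encodes an eIF1A domain protein, by -0.41 (adjusted p = 0.0159, edgeR). The median log2 fold change of the list was -0.51, beside 0.12 over all genes tested.

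A search by sequence found 10 further genes of the same kind on chromosome 12, each with a 144-residue protein at least 90.3% identical to that of Eif1ax, of which 9 are in the count table. They were not chosen by level, but they share sequence with the 6 and may share reads with them, so they are not independent of them. Of the 9, 8 passed the filter on low values only with the help of the KO libraries, where they are high, so their calls are a description and support nothing. All 9 were called upregulated by edgeR's quasi-likelihood test (adjusted p from 9.26e-08 to 0.0485), beside 23.8% of all genes tested, and in 6 of the 9 no KO library overlapped the controls, beside 27%. Without KO 4, 6 of the 9 were called, Gm21319, Gm2035 and Gm2075 being lost, and Gm2075 was also lost without any 1 control library or without KO 3, which also cost Gm21319. Their sum was 0.928 ± 0.307 CPM in controls and 154 ± 102 CPM in KO, and all 15 genes together summed to 2.58 and 291 CPM.

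Gm8332 had the highest counts of these 9. It had 7, 4, 2 and 1 counts in controls and 603, 943, 2250 and 4424 counts in KO, or 65.5, 51.8, 139 and 151 CPM in KO 1 to 4. KO 3 and KO 4 were again the higher pair. Only 9.44% of the windows of its 435-base transcript were unique, and 53.8% occurred in Gm2016 as well, so this value cannot be told apart from reads of its neighbours. BB287469, whose coding sequence equals that of Gm4027, had 1, 1, 0 and 0 counts in controls and 26, 30, 344 and 602 counts in KO.

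Among the rest, Gm21319, Gm21936, Gm6803 and Gm2056 had KO means of 9.84, 8.50, 7.49 and 9.53 CPM with at most 2 counts in any control library, and no KO library overlapped the controls. Gm21319 and Gm21936 were nearly absent from KO 1 and KO 2, with 1 and 3 counts for the first and 2 and 1 for the second, compared with 749 and 666 counts in KO 4. Gm16368 had no control count and 3, 0, 45 and 100 counts in KO. Gm2035 (0.514 ± 0.218 to 3.15 ± 3.82 CPM, adjusted p = 0.0152, edgeR) and Gm2075 (0.184 ± 0.0766 to 0.777 ± 1.02 CPM, adjusted p = 0.0485, edgeR) overlapped between the groups, KO 1 lying below all controls for Gm2035 and KO 2 for Gm2075.

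Genes of another kind also lie between the copies. The span holds 68 other annotated genes, 54 of them pseudogenes, and 15 of the 68 are in the count table. Of the 14 tested, 9 passed the filter only with the help of the KO libraries, and 10 were upregulated (23.8% of all genes tested), 9 of these being the Eif1a-like genes above. Without KO 4 the count was 6. Of the 5 tested that are not Eif1a-like, 1 was upregulated, the low RP23-174O6.3 at 0.267 CPM in KO. With 23.8% of all genes tested upregulated, nothing is read from this count. The 3 most abundant of these 5 genes were well expressed in both groups. How far their reads can be told apart from one another was not measured, so they may not be 3 independent values. Gm10436 was at 1544 ± 289 CPM in controls and 1832 ± 135 in KO (adjusted p = 0.1253, edgeR), Gm2042 at 511 ± 96.3 and 553 ± 81.7 CPM (adjusted p = 0.522, edgeR), and Oog1, an oocyte gene, at 322 ± 80.7 and 397 ± 37.9 CPM (adjusted p = 0.116, edgeR). Each overlapped between groups, with log2 fold changes of 0.25, 0.12 and 0.30 that did not pass the test.

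**Figure D4:**
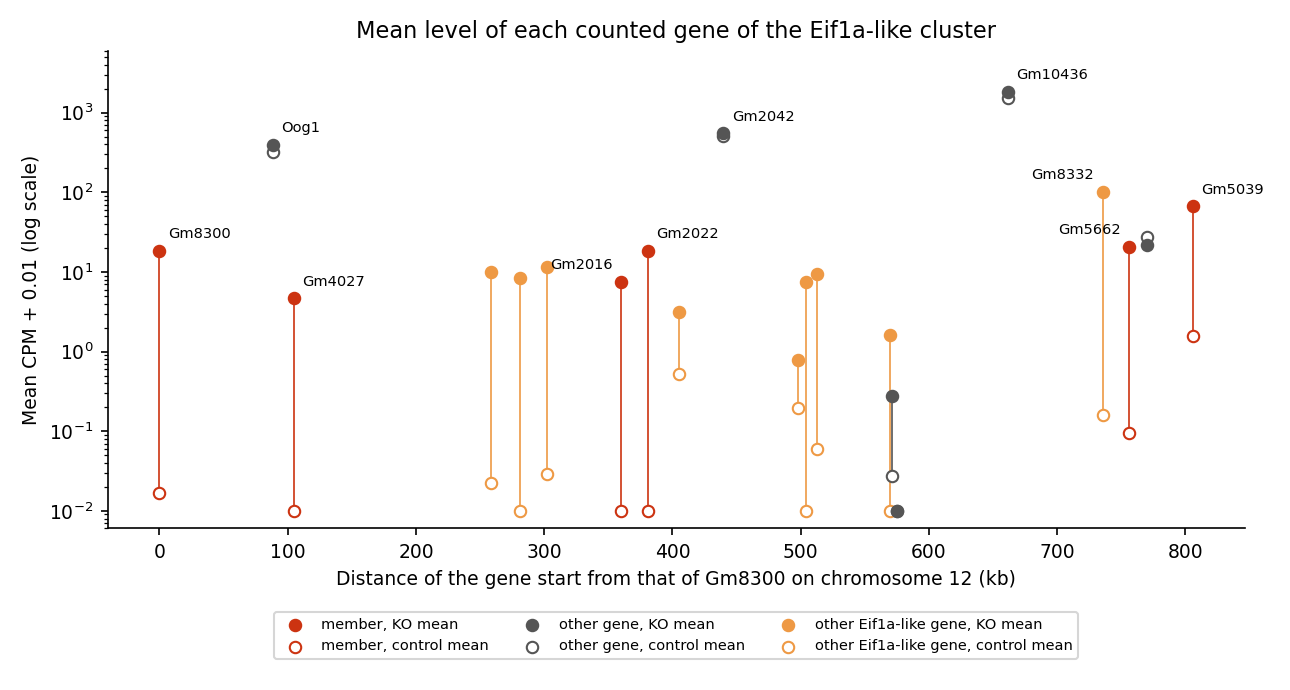
Mean level plus 0.01 (log axis) of the counted genes of the cluster against the distance of their start from that of Gm8300 in kb, with open circles for control and filled circles for KO means (red, the 6 genes; orange, other Eif1a-like genes; grey, other genes). Red and orange genes have higher KO means along the whole span, while Oog1, Gm2042 and Gm10436, set between them, have nearly the same mean in both groups.

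Other transcripts of the 2-cell embryo give the setting of the family. In a list of 2-cell genes 21 were in the table and tested, and 20 were upregulated, with no overlap between groups in 16 of the 21 (23.8% and 27% of all genes tested). The list was drawn up with earlier results of these data known, and 13 of the 21 passed the filter only with the help of the KO libraries. Its most abundant genes in KO were Usp17lb, a deubiquitinase gene (0.218 ± 0.166 to 203 ± 141 CPM), Zscan4d, a zinc finger gene of 2-cell embryos (6.71 ± 1.16 to 161 ± 95.5 CPM), and Tcstv1 (75.8 ± 8.96 to 134 ± 15.6 CPM), the one gene of the list that was not called, its log2 fold change of 0.82 being under the threshold. The 20 genes other than BB287469 summed to 407, 407, 1108 and 1129 CPM in KO 1 to 4, the same division of the libraries as for the Eif1a-like genes, compared with 90.3 to 121 CPM in controls.

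Among the 204 genes defined above, those ranked nearest to the family sum over the 4 KO libraries were Trim43b, Gm7627, Gm5541, Gm8994 and Gm5542, with root mean square differences of 0.0503, 0.114, 0.117, 0.126 and 0.129 in centred log2(CPM + 1). Trim43b was at 0.109, 0.0549, 2.96 and 4.32 CPM in KO 1 to 4, a larger ratio between the libraries than that of the sum. The added 1 flattens genes of low level, so the measure ranks likeness on this scale and not in ratios. The nearest Eif1a-like gene was Gm16368, in place 9, while Gm21936 and Gm21319 came at places 135 and 164.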

How the data were processed

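RNA of GV oocytes was measured in 4 CNOT7&8 KO and 4 Zp3-Cre control libraries, grouped by their labels. By the paper's account ribosomal RNA was depleted, and libraries were made with a TruSeq Stranded mRNA LT kit and 11 PCR cycles. The kit is named for mRNA, and whether the selection of RNA depended on poly(A) tails was not tested. The authors sequenced paired reads of 150 bases, aligned these by STAR 2.6.1d to GRCm38 and deposited raw counts per gene for each library. The counting tool, its annotation, its strand setting and its treatment of reads with several matches are not given in the sources used here. Reads from a gene and an overlapping or antisense partner may therefore not be told apart.

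The deposited counts were scaled by TMM and tested in R 4.3.3 with edgeR 4.0.16 (quasi-likelihood test, Benjamini-Hochberg adjustment over the 19241 genes with at least 0.2 CPM in 2 libraries). Genes with a 2-fold or larger change and an adjusted p no higher than 0.05 were called. Alternatives were library size alone, DESeq2 size factors, edgeR's exact test, DESeq2 1.42.0, other filters, a prior count of 2, the replicate number as a block, and leaving out each library. The tests were checked on simulated counts. Sequences and identities came from GENCODE vM21 transcripts and RefSeq promoters, with Python 3.11.15 and Biopython 1.88. Relatives were genes whose translated coding sequence was at least 50% identical to that of Eif1ax over at least 100 residues. Translations of GENCODE coding sequences were used for this, since no RefSeq proteins were used here. Gm2022, Gm21936 and Gm16368 were matched to the annotation by symbol, their identifiers in the table being absent from vM21.

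The members and lists were chosen with earlier results of these data known. The genes named were the 6 members, their relatives, the eIF1 and eIF1A genes and called genes of the 43S list, the 3 neighbours and 3 genes of the 2-cell list with the highest KO mean, the 5 genes most like the family sum, and Cnot7 and Cnot8. The granulosa markers and RP23-174O6.3 were named after their values were seen, as were the examples of oocyte markers. Libraries with the same replicate number were not treated as pairs in the main fit, since the genotypes come from different animals. Whether they were handled together is not given in the labels.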

Additional observations from a re-analysis of the deposited data

Results flagged for a closer look

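In 4 of the 46 gene and group combinations examined, 1 of the 4 libraries lay far from the other 3. Dixon's criterion at 95% was used, by which roughly 1 in 20 groups of independent, normally distributed values stands out by chance. The genes share the same libraries, so that rate is only a guide. A single read beside 0 in the other libraries is always flagged, so such a flag carries no information. Gm8300 was at 0.0267 CPM in control 1 and at 0 in the other controls, which is a single read. Gm21319 was at 0.0493 CPM in control 2 and at 0 in the other controls, also a single read. Gm2035 was at 0.839 CPM in control 2, compared with 0.374 to 0.437 CPM in the other controls. Cnot7 was at 1048 CPM in control 1, compared with 886 to 900.0 CPM in the other controls.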

How the results depend on the processing

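The direction of the 6 Eif1a-like genes is set by how they were chosen, so that it held under the 17 alternatives is no sign of stability. Gm4027 was not tested when 1 CPM in 4 libraries was required, which left 5 of the 6 in the fit. Their median log2 fold change, 9.82, was 6.61 with a prior count of 2 and 8.88 to 10.26 with 1 library left out, since genes without control counts have no fixed fold change. Without KO 4 the KO means of Gm8300, Gm5662 and Gm4027 were 8.996, 11.2 and 2.73 CPM, compared with 18.3, 20.6 and 4.69 CPM. The counts that moved by over 1.5 times were as follows. With library size alone, which shifted the median of all genes by 0.29, 588 genes were downregulated (1263 with TMM) and 0 of the 43S list. With at least 1 CPM in 4 libraries, 2882 genes were upregulated (4582), 11 of the 2-cell list, 4 of the neighbours and 1 of the 43S list was downregulated, over 13876 genes tested. Leaving out 1 library gave 6 to 10 upregulated neighbours and 1 to 3 downregulated 43S genes. With control 1 and KO 4 both left out, an alternative chosen after seeing the data, 6 neighbours were upregulated.

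The labels do not say whether libraries with the same replicate number were handled together. The correlations of same-numbered deviations were -0.072, -0.042, 0.11 and -0.121, which cannot settle this. With the replicate block, 4316 genes were upregulated and 1254 downregulated, 20 genes of the 2-cell list and 8 neighbours were upregulated, and the log2 fold change of Eif1ax was -0.61. It ended the calls of Gm2035 and Gm2075. Not every library correlated best with its own number: control 1 correlated best with KO 4, at 0.372. That was the highest correlation of any control with any KO library, and control 1 with KO 3, at -0.331, was the lowest. Control 1 and KO 4 are the libraries left out together above, and what they share was not tested. Depth limits the control values: 3 counts correspond to 0.0802 to 0.218 CPM over the control libraries.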
